A study of Mus musculus with 15 samples.

Results

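Transcript levels of 44 genes of cell proliferation and DNA replication were examined in RNA-seq counts from whole liver of young and old mice with and without S6K1. The genes were given as a fixed list by symbol, and 44 of 44 were found among the 37991 genes counted. Of these, 39 passed a filter on low counts and entered the tests, together with 14219 other genes. The other 5 members (Ccne1, Ccnb1, Cdc6, Aurkb and Bub1) had too few reads and are given by their values and an exact permutation test.

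The series holds 15 livers, each 1 library from 1 female C57BL/6 mouse on chow, in 3 groups of 5. Young WT mice were 90 days old and carried an intact Rps6kb1 gene, which encodes ribosomal S6 kinase 1 (S6K1). Old WT and old KO mice were 600 days old. WT and KO mice came from heterozygous breeding. The deletion in old KO mice is present from conception in every cell type. There is no young KO group, so genotype was compared at 600 days alone. The tissue is a whole-liver lysate of hepatocytes and all other liver cells.

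Levels are given as CPM, counts divided by the library size in units of 1e+06 reads, with library sizes scaled by TMM. Rps6kb1, the targeted gene, stood at 16.3, 15.8, 16.9, 15.2 and 20.8 CPM in the old KO libraries and at 33.3 to 45.4 CPM in the 10 WT libraries. The difference from old WT was -1.17 on the log2 scale (SE 0.0979, adjusted p = 8.54e-06), and no old KO library overlapped a WT library. Between 21801754 and 38065359 reads were counted per library. The 9 hepatocyte markers summed to between 97507 and 158837 CPM, and none of them was at 0 in any library. Adjusted p-values are from edgeR's quasi-likelihood test with Benjamini-Hochberg adjustment over all 14258 genes tested, with 0.05 as the threshold. Where values of all libraries are listed, they stand in the order young WT 1, 2, 3, 4, 6, old WT 1, 4, 5, 7, 10 and old KO 1, 2, 4, 5, 6.

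A dividing cell first licenses its replication origins, then copies its DNA, then condenses and separates the copies. Cyclins and cyclin-dependent kinases drive the order of these steps. The E2F factors switch on genes of DNA synthesis, while FOXM1 and the MuvB complex switch on genes of mitosis, many of them through a CHR element, often with CCAAT boxes in front of it. In healthy adult liver almost all hepatocytes rest outside the cycle, so transcripts of these genes are scarce, and dividing cells of any type in the tissue add to them. In whole tissue, a lower count of dividing cells and a lower level of transcript in each of them cannot be told apart.

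Promoter windows of 300 bases (250 before and 50 after the transcription start) were available for 36 of the 44 members in a RefSeq-based table for the GRCm38 assembly. A CHR (TTTGAA or TTCGAA, read on both strands) was present in 20 of the 36 members (55.6%) and in 21.7% of all 27025 genes of the table. CCAAT was present in 28 of 36 (77.8%, against 41.1% of all genes). An E2F site, searched as TTTCCCGC, TTTGGCGC, TTTCGCGC, TTCCCGCC or TTGGCGCC on both strands, was present in 9 of 36 (25%, against 4.65%). The E2F words overlap each other, so 1 stretch can match more than once. Among members with a window, a CHR was found in 11 of 14 kinase, checkpoint, spindle, kinetochore, cytokinesis and anaphase genes, in 3 of 13 of replication and nucleotide supply, in 2 of 4 cyclins and CDK1 and in 4 of 5 regulators of transcription and chromatin. E2F words were found in 0 of 14, 7 of 13, 2 of 4 and 0 of 5 of these. The 2 among the cyclins and CDK1 were Ccnb1 and Cdk1, which also act in mitosis, and with these and Ccnb2 counted as mitotic a CHR stood in 13 of 17 and an E2F word in 2 of 17.

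**Figure D1:**
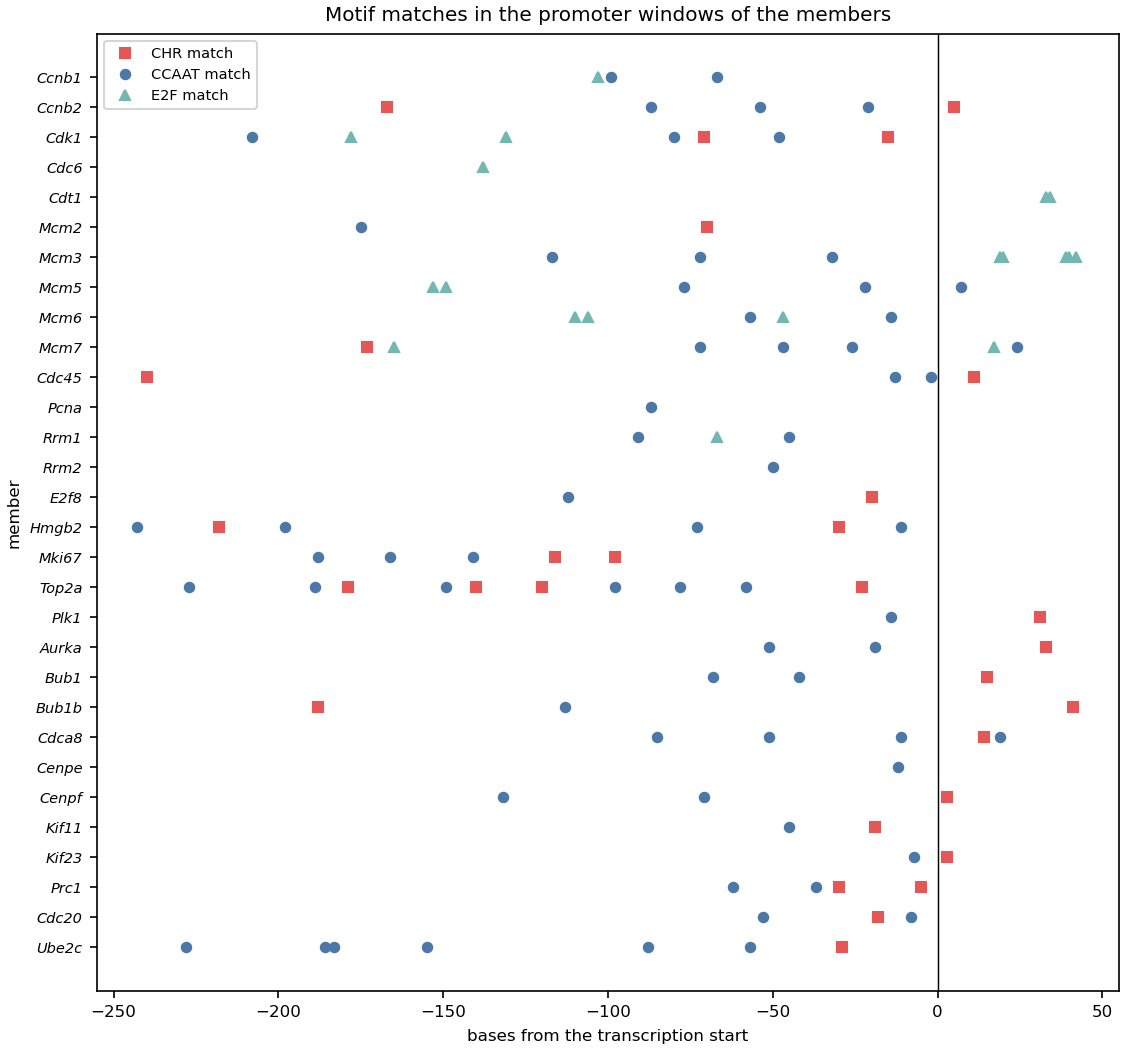
Positions of CHR (squares), CCAAT (circles) and E2F (triangles) matches on either strand, in bases from the transcription start, for the 30 of 36 members with any match, ordered by role as in the text. CHR matches of the mitotic members lie mostly within 50 bases of the start, with CCAAT matches in front of them, and most E2F matches are in Mcm genes.

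Stretches from 200 bases before to 30 bases after the start are shown for 5 members that rose with age and had a motif match: 4 with a CHR and CCAAT boxes, and Mcm5 with E2F words in place of the CHR. They are written 5′ to 3′ on the strand of the gene, and capitals mark the motif matches. Tk1 and E2f1, which also rose, had windows in which none of these letters occurred. The 7 members that rose and had a window held a CHR in 4 (57.1%, against 55.6% of all 36 members). They held CCAAT in 5 (71.4%, against 77.8%) and an E2F site in 1 (14.3%, against 25%). Each stretch was found once on its chromosome in NCBIM37, the build of the counts, at chr9:70269332-70269561 (Ccnb2, minus strand), chr4:118109919-118110148 (Cdc20, minus), chr4:124614132-124614361 (Cdca8, minus), chr7:142908033-142908262 (Mki67, minus) and chr8:77633208-77633437 (Mcm5, plus).
Ccnb2: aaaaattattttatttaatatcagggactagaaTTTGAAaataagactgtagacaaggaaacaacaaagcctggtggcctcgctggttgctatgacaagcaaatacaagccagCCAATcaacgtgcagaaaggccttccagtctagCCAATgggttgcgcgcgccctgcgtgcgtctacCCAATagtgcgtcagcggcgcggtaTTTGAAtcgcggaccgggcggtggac
Cdc20: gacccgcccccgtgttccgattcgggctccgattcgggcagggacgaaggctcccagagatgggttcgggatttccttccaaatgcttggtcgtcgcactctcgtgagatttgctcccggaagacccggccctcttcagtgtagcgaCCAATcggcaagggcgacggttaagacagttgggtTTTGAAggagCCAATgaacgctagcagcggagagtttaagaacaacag
Cdca8: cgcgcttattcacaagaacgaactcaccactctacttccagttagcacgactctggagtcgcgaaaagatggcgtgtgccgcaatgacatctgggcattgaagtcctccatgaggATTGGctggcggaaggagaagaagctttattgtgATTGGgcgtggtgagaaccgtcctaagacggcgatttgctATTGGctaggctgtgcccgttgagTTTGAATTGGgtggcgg
Mki67: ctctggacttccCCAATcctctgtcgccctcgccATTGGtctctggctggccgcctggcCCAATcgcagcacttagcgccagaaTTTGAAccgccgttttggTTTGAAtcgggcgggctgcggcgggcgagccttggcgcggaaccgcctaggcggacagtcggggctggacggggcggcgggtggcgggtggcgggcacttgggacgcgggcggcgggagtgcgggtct
Mcm5: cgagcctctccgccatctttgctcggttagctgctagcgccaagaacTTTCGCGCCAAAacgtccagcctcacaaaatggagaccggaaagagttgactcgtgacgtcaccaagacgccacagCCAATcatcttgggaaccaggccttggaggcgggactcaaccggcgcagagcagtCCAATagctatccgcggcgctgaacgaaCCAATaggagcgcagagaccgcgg

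In liver of old WT mice, transcripts of 8 of the 39 tested members were higher than in young WT mice and none was lower. They were Tk1, E2f1, Mki67, Ccnb2, Cdca8, Mcm5, Tpx2 and Cdc20, with log2 fold changes between 0.71 and 1.25. The 8 make up 20.5% of the tested members. Over all genes, 18.8% passed in either direction, 9.92% as higher and 8.91% as lower. The share of members called in either direction was thus close to the background, while 8 of 8 were higher. One of them, Cdc20, passed the filter on low counts only with the old WT libraries counted. Of the 39 estimates, 32 (82.1%) lay above 0, against 51.2% of all tested genes, and their median was 0.31 against 0.01. In 6 members (Ccnb2, Mcm5, Tyms, Tk1, Cdca8 and Tpx2) every old WT library lay above every young WT library, against 5.78% of all genes. The opposite was seen in 0 members and in 808 of all 14258 tested genes.

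Between old KO and old WT mice, 0 of the 39 members passed the threshold in edgeR, where 0.533% of all genes did. At an unadjusted p under 0.05 there were 13 members (33.3%, against 11.6% of all genes). DESeq2 called 2 (5.13%), Cdk1 and Cenpf, both lower in old KO, where it called 2.14% of all genes, and limma voom called 0, against 0.161%. Estimates were below 0 for 31 of 39 members (79.5%, against 49.8%), and their median was -0.35 against 0.00 over all genes. In 3 members (Cdk1, Mcm2 and Mcm5) every old KO library lay below every old WT library, which held for 2.08% of all genes. Both comparisons use the same 5 old WT libraries, so a chance deviation of these libraries enters both, with opposite sign.

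**Figure D2:**
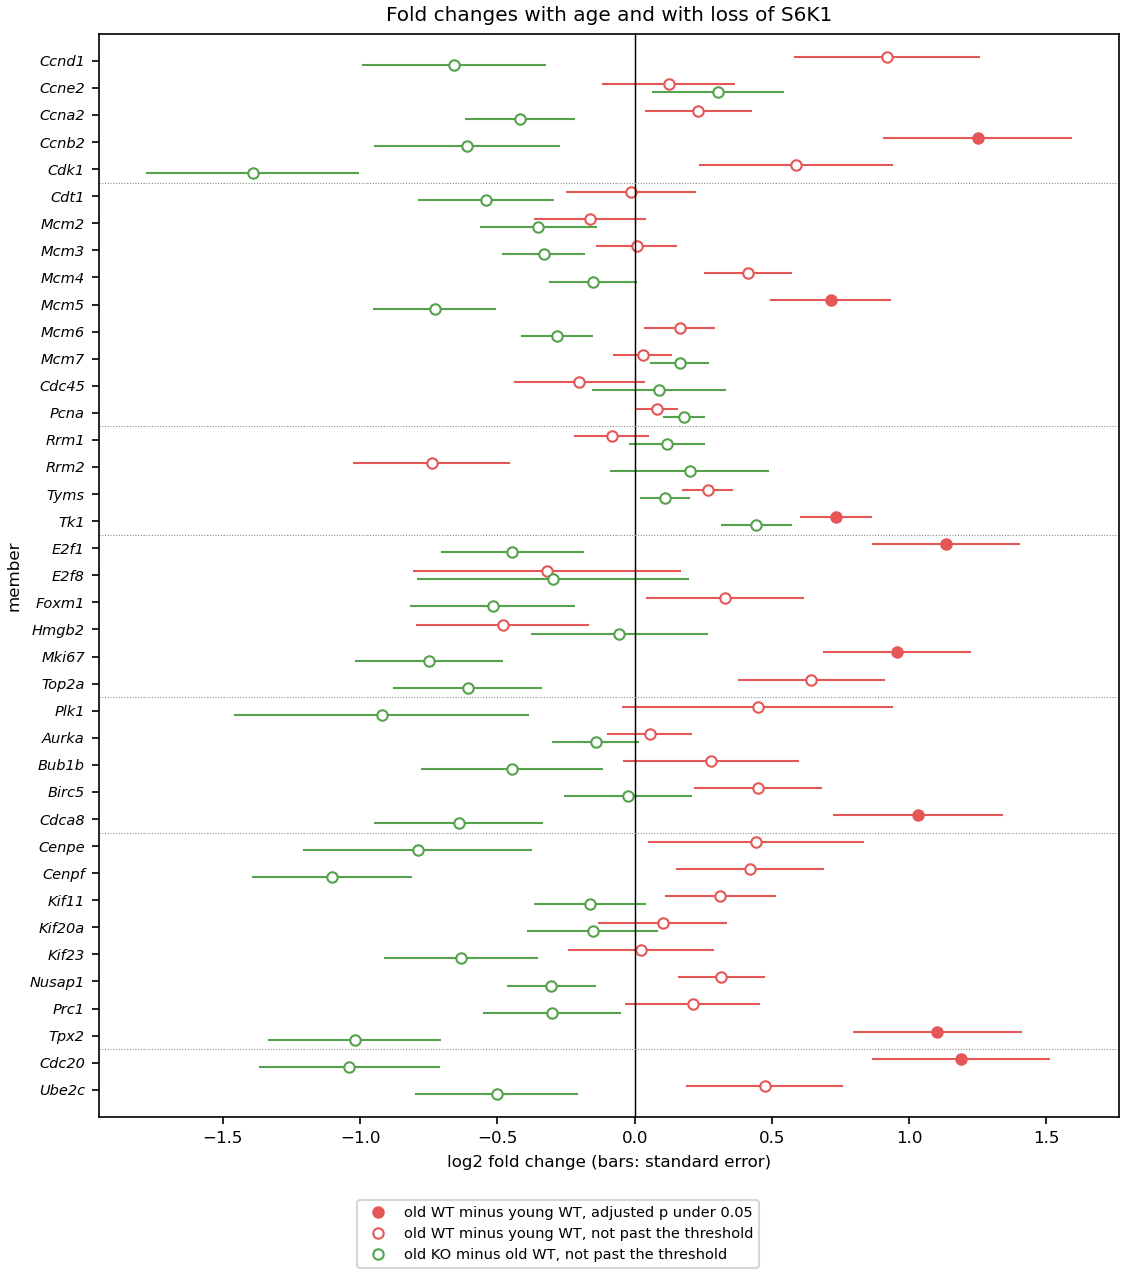
Log2 fold changes of the 39 tested members (points) with their standard errors (bars), old WT minus young WT in red and old KO minus old WT in green, filled where the adjusted p was under 0.05. Red points lie above 0 for 32 members and green points below 0 for 31, and both estimates of a gene share the old WT libraries.

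The mean log2 CPM over all 44 members was 0.469 ± 0.0904 in young WT, 0.794 ± 0.159 in old WT and 0.401 ± 0.111 in old KO (SD, n = 5 each). The 4 highest libraries were old WT 10 (0.954), 5 (0.949), 4 (0.762) and 7 (0.722). Old WT 1 (0.582) stood next to young WT 1 (0.589). The old KO libraries lay between 0.240 and 0.510 and overlapped the young WT range of 0.382 to 0.589. No test was run on this mean. Levels per kilobase of exon differed widely among the members. Ccnd1 stood highest at 14.9 CPM per kilobase over all libraries, followed by Pcna at 9.12, Tk1 at 2.89 and Mcm7 at 2.72. The other 40 members were at 2.56 or less, down to 0.0320 for Bub1. Spread between mice of a group also differed, from an SD of 0.11 on the log2 scale in Pcna and Tyms to 1.03 in E2f8.

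**Figure D3:**
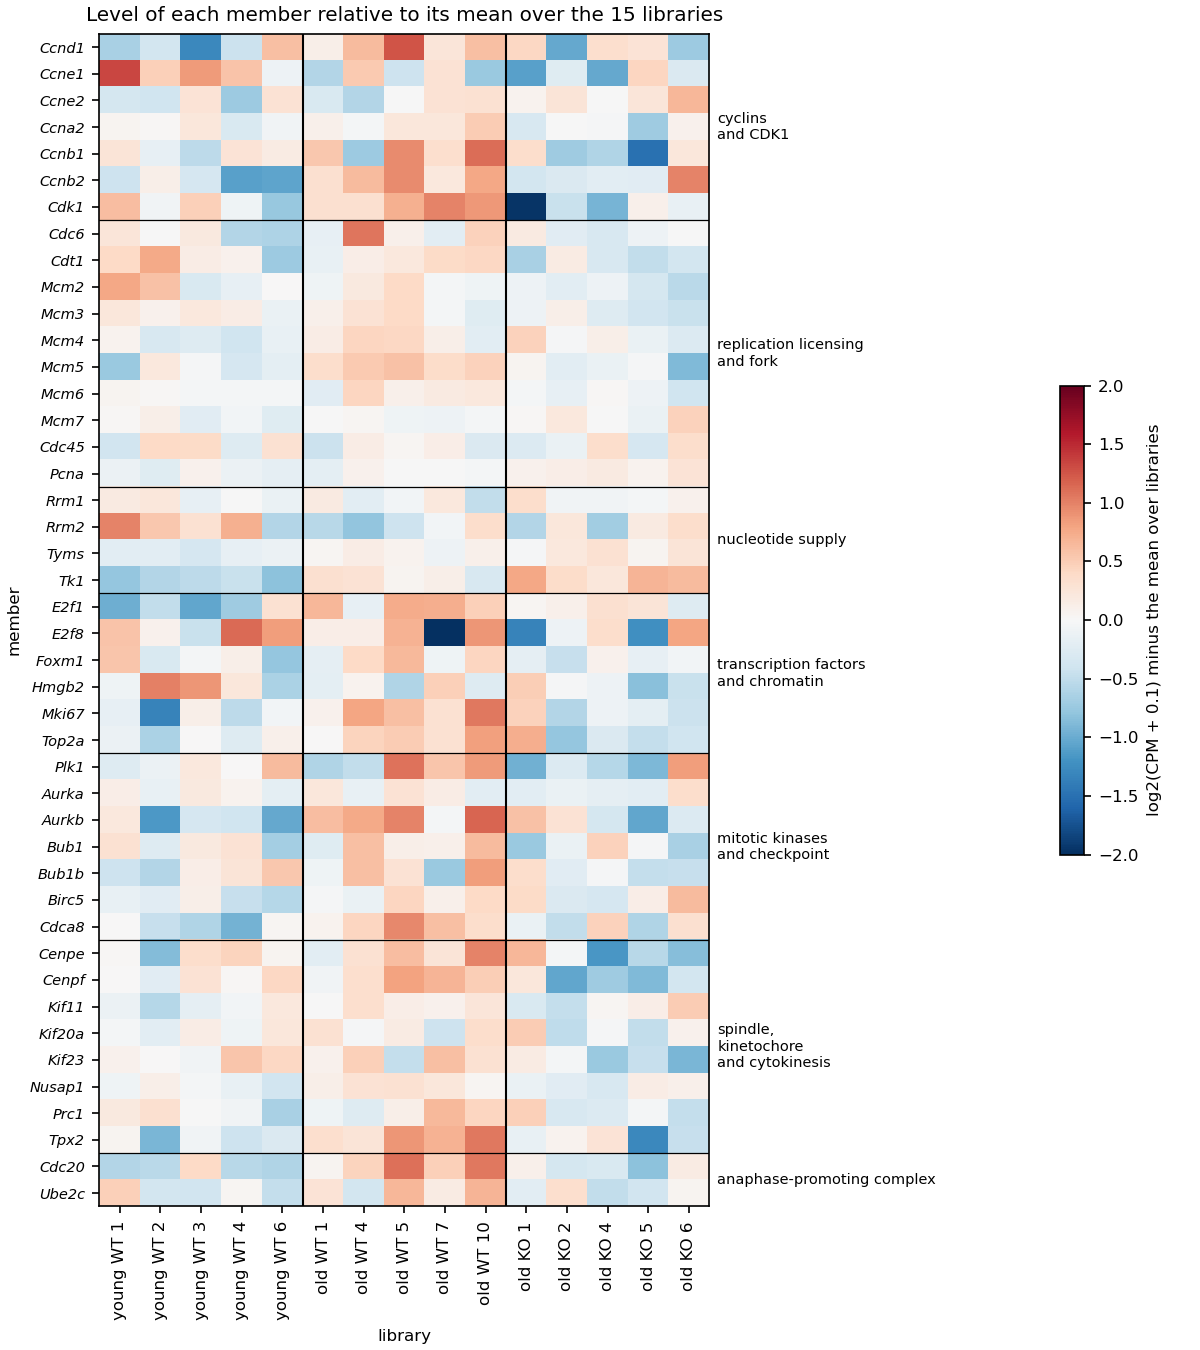
Level of each of the 44 members (rows, by role) in each of the 15 libraries (columns), as log2(CPM + 0.1) minus the gene's mean over the libraries, with red above and blue below the mean and the colours ending at 2 and -2. Old WT columns are red in most rows outside nucleotide supply, most of all in old WT 5 and 10.

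Among cyclins and CDK1, which set the order of the cycle, 1 of 5 tested members changed with age. Ccnb2 encodes cyclin B2, a partner of CDK1 at entry into mitosis. It was measured at 0.395, 0.611, 0.424, 0.211 and 0.216 CPM in young WT, 0.719, 0.925, 1.16, 0.660 and 1.03 CPM in old WT and 0.412, 0.436, 0.471, 0.461 and 1.21 CPM in old KO. Old WT libraries stood above all young ones, by 1.25 on the log2 scale (SE 0.345, adjusted p = 0.0203). In old KO, 4 libraries stood below every old WT library, while old KO 6 stood above all of them, and the difference from old WT was -0.61 (SE 0.338, adjusted p = 0.519).

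Cdk1, the mitotic kinase itself, read 0.948, 0.550, 0.848, 0.542 and 0.302 CPM in young WT, 0.750, 0.747, 1.01, 1.25 and 1.14 CPM in old WT and 0.0749, 0.399, 0.257, 0.629 and 0.511 CPM in old KO. Its estimate in old KO against old WT was -1.39 (SE 0.389, adjusted p = 0.141), the lowest of the 39 members, and the 2 groups did not overlap. With DESeq2 it passed (log2 fold change -1.40, adjusted p = 0.0284). Against young WT, old WT differed by 0.59 (SE 0.354, adjusted p = 0.262), with overlapping groups.

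Ccnd1 encodes cyclin D1, which links growth signals to the exit from rest and is also expressed in resting liver. Its values were 32.8, 39.9, 20.9, 38.1 and 78.2 CPM in young WT, 55.5, 79.3, 123, 60.4 and 77.9 CPM in old WT and 68.03, 25.1, 64.8, 62.3 and 30.9 CPM in old KO. Young WT 6 lay inside the old WT range, and the age difference of 0.92 (SE 0.338) had an adjusted p of 0.0672. Without young WT 6 it was 1.27 with an adjusted p of 0.00988, and in limma voom it was 1.00 with one of 0.0472. The genotype difference was -0.66 (SE 0.336, adjusted p = 0.474).

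Ccna2, cyclin A2 of S phase and early mitosis, read 1.0004, 0.977, 1.14, 0.753 and 0.905 CPM in young WT, 1.03, 0.925, 1.13, 1.14 and 1.40 CPM in old WT and 0.749, 0.944, 0.942, 0.545 and 1.02 CPM in old KO. All groups overlapped, and its estimates were 0.23 with age and -0.42 with genotype (adjusted p = 0.429 and 0.437). Ccne2, a cyclin E gene, averaged 1.56 ± 0.510, 1.69 ± 0.455 and 2.08 ± 0.422 CPM in young WT, old WT and old KO (SD, n = 5 each). Its exons overlap those of Ints8 on the other strand, and whether the reads were counted by strand was not stated.

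Ccne1, the other cyclin E gene, had 62 reads in the 5 young WT libraries, 25 in old WT and 16 in old KO. Its values were 0.632, 0.305, 0.424, 0.331 and 0.172 CPM in young WT, 0.0937, 0.320, 0.119, 0.257 and 0.0735 CPM in old WT and 0.0374, 0.145, 0.0428, 0.293 and 0.139 CPM in old KO. It was the cyclin with its highest mean in young liver, and all 3 groups overlapped. In exact 2-sided permutation tests on log2(CPM + 0.1) with 5 against 5 libraries, p was 0.0556 for age, 0.508 for genotype and 0.0159 for old KO against young WT. Ccnb1, cyclin B1, read 0.237, 0.153, 0.0978, 0.241 and 0.216 CPM in young WT, 0.312, 0.0711, 0.447, 0.257 and 0.515 CPM in old WT and 0.262, 0.0726, 0.0857, 0 and 0.232 CPM in old KO. Old KO 5 had no read, which at 3 counts allows a level of up to 0.126 CPM by counting error alone. Exact permutation p-values for Ccnb1 were 0.254 with age and 0.103 with genotype.

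Of the 9 tested members that load and run the replication machinery, Mcm5 changed with age. MCM5 is a subunit of the hexameric helicase that opens DNA at the fork. Its transcript stood at 0.474, 1.01, 0.848, 0.663 and 0.733 CPM in young WT, 1.12, 1.28, 1.34, 1.14 and 1.21 CPM in old WT and 0.899, 0.726, 0.771, 0.838 and 0.418 CPM in old KO. The old WT libraries lay above all 10 others. The difference was 0.71 with age (SE 0.220, adjusted p = 0.0336) and -0.73 with genotype (SE 0.225, adjusted p = 0.177).

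With age, the other helicase genes did not move with it as a block. With genotype, the means of Mcm2, Mcm3, Mcm4 and Mcm6 were also lower in old KO than in old WT, and that of Mcm7 was higher. Mcm2 read 4.40, 3.85, 2.02, 2.26 and 2.54 CPM in young WT, 2.37, 2.92, 3.37, 2.46 and 2.39 CPM in old WT and 2.36, 2.18, 2.36, 1.97 and 1.72 CPM in old KO. Every old KO library was below every old WT library, although the estimate of -0.35 (SE 0.211) had an adjusted p of 0.550. With age Mcm2 differed by -0.16 (SE 0.205, adjusted p = 0.616). Group means in young WT, old WT and old KO were 3.55 ± 0.348, 3.56 ± 0.638 and 2.83 ± 0.483 CPM for Mcm3, and 3.61 ± 0.482, 4.81 ± 0.853 and 4.32 ± 0.904 CPM for Mcm4 (SD, n = 5 each). They were 3.13 ± 0.1005, 3.51 ± 0.569 and 2.88 ± 0.324 CPM for Mcm6. None of these 3 passed in either comparison, with unadjusted p under 0.05 for Mcm4 with age and for Mcm3 and Mcm6 with genotype. Mcm4 was called higher with age in the fit without old WT 10. Mcm7 averaged 11.4 ± 1.29, 11.6 ± 0.451 and 13.1 ± 2.15 CPM. Its exons overlap those of Ap4m1 and Cops6 on the other strand and hold 2 miRNA genes on its own strand.

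Pcna, the sliding clamp of the DNA polymerases and also a factor of DNA repair, had 20.03, 18.3, 23.2, 20.1 and 19.2 CPM in young WT, 19.03, 23.2, 21.6, 21.6 and 21.2 CPM in old WT and 23.03, 23.9, 24.8, 22.8 and 26.4 CPM in old KO. The old KO mean was the highest, with all 5 libraries above every old WT value except that of old WT 4. Pcna differed by 0.08 with age (SE 0.0769, adjusted p = 0.497) and by 0.18 with genotype (SE 0.0769, adjusted p = 0.368). Cdt1, which loads the helicase, averaged 1.91 ± 0.689, 1.91 ± 0.298 and 1.31 ± 0.324 CPM in the 3 groups. Its genotype estimate was -0.54 (SE 0.247, adjusted p = 0.411). Cdc45, part of the active helicase, averaged 1.02 ± 0.277, 0.881 ± 0.174 and 0.941 ± 0.244 CPM. Cdc6, which loads the helicase with CDT1, had 27, 38 and 21 reads in the groups, and with 5 libraries a group its exact permutation p-values were 0.214 for age and 0.222 for genotype.

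Among the 4 genes of nucleotide supply, the means of Tk1 and Tyms were lowest in young WT and highest in old KO, that of Rrm2 was highest in young WT and that of Rrm1 lowest in old WT. Tk1, cytosolic thymidine kinase of the thymidine salvage route, had 8.24, 9.40, 9.78, 10.3 and 7.98 CPM in young WT, 17.6, 17.2, 14.7, 15.2 and 11.2 CPM in old WT and 24.2, 18.2, 16.5, 22.5 and 21.95 CPM in old KO. Both old groups lay entirely above young WT. Old WT exceeded young WT by 0.73 (SE 0.131, adjusted p = 0.00195) and old KO exceeded young WT by 1.18 (SE 0.132, adjusted p = 4.62e-05). Old KO against old WT was 0.44 (SE 0.129), with an adjusted p of 0.155 and overlapping groups. Tk1 exons overlap Afmid exons on the other strand.

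Tyms, thymidylate synthase, averaged 6.23 ± 0.363, 7.49 ± 0.494 and 8.09 ± 0.787 CPM in young WT, old WT and old KO (SD, n = 5 each). Both old groups again lay above every young WT library. The difference from young WT was 0.27 in old WT (SE 0.0925, adjusted p = 0.0545) and 0.38 in old KO (SE 0.0928, adjusted p = 0.00897). The difference in old WT passed in 4 of 8 alternatives, with adjusted p between 0.0393 and 0.163 over the 8. Those it passed were DESeq2, limma voom, upper quartile scaling and the stricter filter. Rrm2, the regulatory subunit of ribonucleotide reductase, had 10.7, 7.79, 6.58, 8.74 and 3.49 CPM in young WT, 3.59, 3.02, 3.97, 5.13 and 6.76 CPM in old WT and 3.52, 6.25, 3.26, 5.995 and 6.78 CPM in old KO. Apart from young WT 6, the young libraries were at 6.58 CPM or above, which old WT 10 and old KO 6 alone reached among the old livers. Old WT minus young WT was -0.74 (SE 0.285, adjusted p = 0.0802). With DESeq2 the adjusted p was 0.0467, and without young WT 6 or old WT 10 in edgeR it was 0.0189 and 0.0403. Rrm1, the catalytic subunit, averaged 10.4 ± 1.32, 9.78 ± 1.94 and 10.6 ± 1.44 CPM. The genotype estimates of the 4 genes were all above 0, from 0.11 for Tyms to 0.44 for Tk1, and none passed.

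In old KO against young WT, 3 members passed, all higher: Tk1, Tyms and Pcna, the last by 0.26 (SE 0.0770, adjusted p = 0.0239). They were 7.69% of the tested members, against 12% of all genes called higher and 11.3% called lower. The median of the 39 estimates was -0.03. Without young WT 6 there were 6 members, 4 of them higher, with E2f1 added as higher and Cdt1 and Rrm2 as lower. Pcna lost its call without young WT 2 or 4 or old KO 4 or 6 (adjusted p between 0.0501 and 0.0631), and with no filter on low counts (adjusted p = 0.0634). Age and genotype both differ in this comparison.

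Of the 6 members that regulate transcription or chromatin, E2f1 and Mki67 rose with age. E2F1 is an activator of genes of DNA synthesis. E2f1 read 0.579, 0.855, 0.554, 0.723 and 1.55 CPM in young WT, 2.03, 1.10, 2.15, 2.13 and 1.76 CPM in old WT and 1.27, 1.34, 1.58, 1.51 and 1.02 CPM in old KO. The age difference was 1.13 (SE 0.268, adjusted p = 0.00913), with young WT 6 above old WT 4. Old KO averaged 1.35 ± 0.221 CPM (SD, n = 5) and stood at -0.45 against old WT (SE 0.262, adjusted p = 0.538).

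Mki67 encodes Ki-67, the usual stain for cycling cells, which coats mitotic chromosomes. Its values were 2.32, 0.977, 2.84, 1.78 and 2.50 CPM in young WT, 2.78, 4.59, 3.996, 3.26 and 5.51 CPM in old WT and 3.63, 1.71, 2.44, 2.26 and 1.90 CPM in old KO. Old WT 1 lay just under the highest young library and the other 4 stood above all of them. Mki67 was higher by 0.95 with age (SE 0.269, adjusted p = 0.0224) and differed by -0.75 with genotype (SE 0.270, adjusted p = 0.262), where old KO 1 reached the old WT range.

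Top2a, the topoisomerase that untangles sister DNA, read 1.32, 0.885, 1.43, 1.18 and 1.55 CPM in young WT, 1.44, 1.99, 2.09, 1.80 and 2.61 CPM in old WT and 2.43, 0.799, 1.16, 1.01 and 1.07 CPM in old KO. It followed the order of Mki67, old KO 1 being again the highest of its group, at 0.64 with age (SE 0.267, adjusted p = 0.103) and -0.61 with genotype (SE 0.270, adjusted p = 0.395). Without old KO 1 the age estimate had an adjusted p of 0.0326.

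Foxm1, the activator of mitotic genes, was low at 0.684, 0.336, 0.424, 0.482 and 0.216 CPM in young WT, 0.375, 0.605, 0.745, 0.403 and 0.625 CPM in old WT and 0.374, 0.291, 0.471, 0.377 and 0.418 CPM in old KO. Its groups overlapped, with 0.33 for age and -0.52 for genotype (adjusted p = 0.448 and 0.537). E2f8, an atypical E2F that represses cycle genes and acts in hepatocyte polyploidy, averaged 12.6 ± 4.99, 10.05 ± 5.60 and 8.22 ± 4.97 CPM and ranged from 1.43 to 15.99 CPM within old WT. Hmgb2, a chromatin protein of proliferating cells, averaged 3.02 ± 1.38, 2.18 ± 0.655 and 2.07 ± 0.754 CPM. Neither passed, and their age estimates were below 0 at -0.32 and -0.48.

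**Figure D4:**
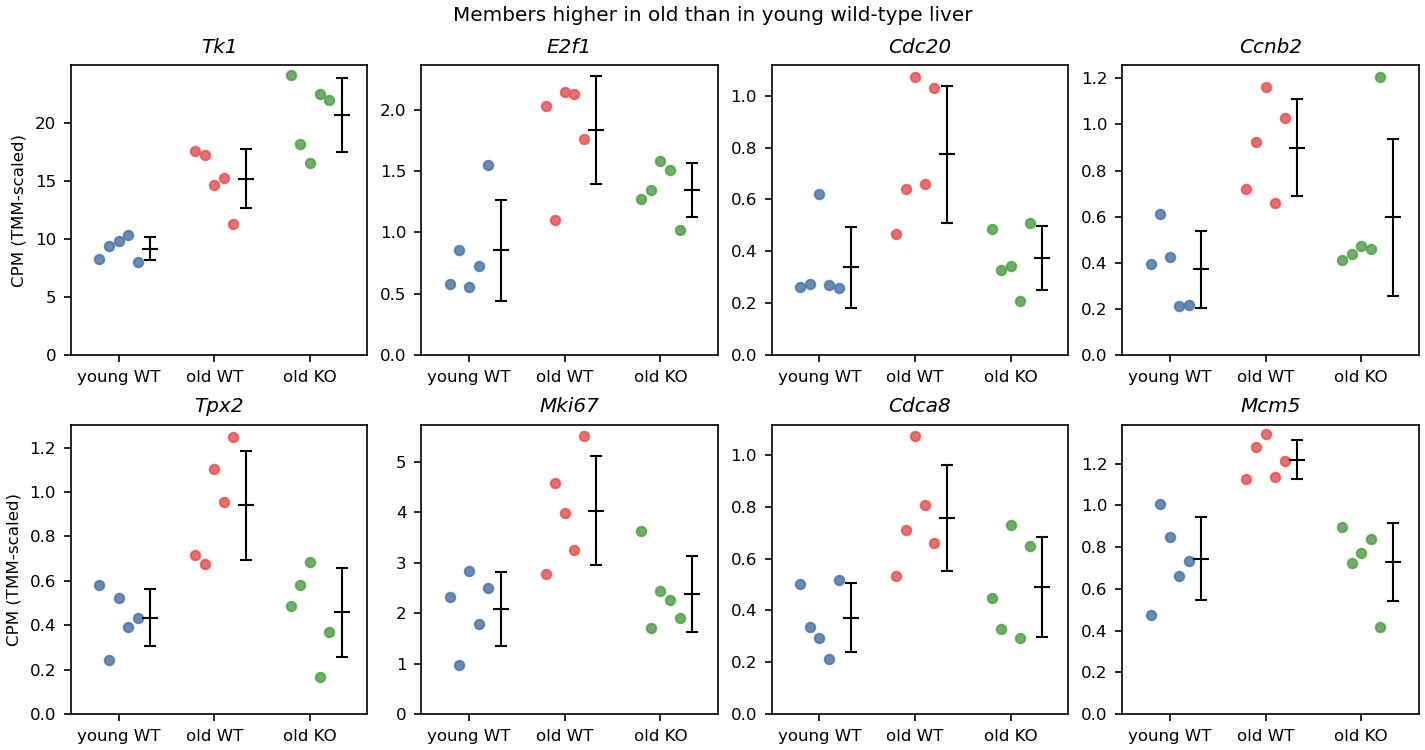
CPM of the 8 members that rose with age, 1 point per library and the group mean with its SD beside the points (n = 5 each), on axes that start at 0. Old WT exceeds young WT in each panel, while old KO lies near young WT for Cdc20, Tpx2 and Mcm5 and above old WT for Tk1.

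The mitotic kinase and checkpoint genes had 5 tested members, of which Cdca8 changed with age. CDCA8 (borealin), BIRC5 (survivin) and Aurora B belong to the chromosomal passenger complex, which corrects the attachment of chromosomes to the spindle. Cdca8 read 0.5002, 0.336, 0.293, 0.211 and 0.517 CPM in young WT, 0.531, 0.711, 1.07, 0.806 and 0.662 CPM in old WT and 0.449, 0.327, 0.728, 0.293 and 0.650 CPM in old KO. Old WT was above young WT in every library, by 1.03 (SE 0.309, adjusted p = 0.0297), and old KO minus old WT was -0.64, with overlapping groups (SE 0.308, adjusted p = 0.440). The exons of Cdca8 overlap those of 9930104L06Rik on the other strand.

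Aurkb, encoding the kinase of that complex, had 19 reads in young WT, 58 in old WT and 23 in old KO and failed the filter. It read 0.237, 0.0305, 0.130, 0.121 and 0.0431 CPM in young WT, 0.344, 0.391, 0.477, 0.183 and 0.551 CPM in old WT and 0.337, 0.254, 0.128, 0.0419 and 0.139 CPM in old KO. By exact permutation with 5 libraries a group, p was 0.0159 with age and 0.0397 with genotype. The smallest p these group sizes allow is 0.00794, and 3 of the 15 exact tests run on the 5 scarce members gave a p under 0.05, unadjusted. With no filter on low counts, edgeR called Aurkb higher with age and not lower with genotype. Birc5 averaged 0.789 ± 0.172, 1.08 ± 0.207 and 1.07 ± 0.341 CPM in the 3 groups, at 0.45 with age and -0.03 with genotype (adjusted p = 0.194 and 0.988).

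Plk1, the polo-like kinase of mitotic entry and exit, read 0.184, 0.214, 0.293, 0.241 and 0.431 CPM in young WT, 0.125, 0.142, 0.626, 0.403 and 0.515 CPM in old WT and 0.0749, 0.182, 0.128, 0.0838 and 0.511 CPM in old KO. Its values scattered widely within each group. The SE of 0.492 for age (0.45, adjusted p = 0.557) and of 0.538 for genotype (-0.92, adjusted p = 0.537) was the largest of the 39 members. Aurka, the kinase of spindle poles, averaged 2.52 ± 0.315, 2.62 ± 0.414 and 2.38 ± 0.461 CPM, with estimates of 0.05 for age and -0.14 for genotype. The checkpoint kinase gene Bub1b averaged 0.765 ± 0.274, 0.917 ± 0.391 and 0.667 ± 0.195 CPM. Its relative Bub1 had 22, 26 and 13 reads, and with 5 libraries a group its exact permutation p-values were 0.310 for age and 0.119 for genotype.

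The 8 spindle, kinetochore and cytokinesis genes all had age estimates above 0 and genotype estimates below 0, and 1 passed, Tpx2 with age. TPX2 activates Aurora A and nucleates microtubules around chromosomes. Tpx2 read 0.579, 0.244, 0.522, 0.392 and 0.431 CPM in young WT, 0.719, 0.676, 1.10, 0.953 and 1.25 CPM in old WT and 0.487, 0.581, 0.685, 0.168 and 0.371 CPM in old KO. Old WT lay above every young WT library and overlapped old KO at 1 library, old KO 4. The differences were 1.10 with age (SE 0.309, adjusted p = 0.0217) and -1.02 with genotype (SE 0.316, adjusted p = 0.179).

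Cenpf, a kinetochore protein gene, had the smallest genotype p of the 39 members. It averaged 0.686 ± 0.136, 0.911 ± 0.221 and 0.421 ± 0.1997 CPM, and old KO differed from old WT by -1.10 (SE 0.291, adjusted p = 0.109). Without old KO 1 the count of members called between genotypes rose from 0 to 1, Cenpf, at -1.43 (adjusted p = 0.0362). Cenpe, a kinetochore motor, averaged 0.438 ± 0.163, 0.599 ± 0.216 and 0.335 ± 0.233 CPM. The kinesins Kif11 of spindle bipolarity and Kif20a of cytokinesis averaged 1.59 ± 0.161 and 0.939 ± 0.208 CPM in old WT, with genotype estimates of -0.16 and -0.15. Kif23, of the central spindle, averaged 0.934 ± 0.198, 0.951 ± 0.277 and 0.601 ± 0.224 CPM, a genotype estimate of -0.63 (SE 0.281, adjusted p = 0.396). Nusap1 and Prc1, which bundle spindle microtubules, had age estimates of 0.32 and 0.21 and genotype estimates of -0.30 and -0.30.

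Cdc20 and Ube2c serve the anaphase-promoting complex, the ubiquitin ligase that triggers the separation of chromosomes, as its activator and its ubiquitin-conjugating enzyme. Cdc20 read 0.263, 0.275, 0.619, 0.271 and 0.259 CPM in young WT, 0.469, 0.640, 1.07, 0.660 and 1.03 CPM in old WT and 0.487, 0.327, 0.343, 0.210 and 0.511 CPM in old KO. Young WT 3 was the single young library inside the old WT range. The differences were 1.19 with age (SE 0.324, adjusted p = 0.0190) and -1.04 with genotype (SE 0.330, adjusted p = 0.193). The filter asked for 5 libraries at 0.361 CPM or more. Cdc20 reached this in all 5 old WT libraries but in only 3 others, so it was tested because it was high in old WT, and the same held for Plk1 with 3 old WT libraries and 2 others. Ube2c averaged 0.537 ± 0.190, 0.756 ± 0.238 and 0.531 ± 0.154 CPM and did not pass in either. Exons of Cdc20 overlap Elovl1, those of Ube2c overlap Tnnc2 and those of Nusap1 overlap Oip5, each on the other strand. Ccna2, Ccnd1, Cdc45, E2f8, Foxm1, Kif20a, Top2a and Tyms also share exon sequence with another annotated gene.

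The age calls depended on which mice were in the fit. Of the 8, Tk1 and E2f1 passed in all 15 fits that each left out 1 library. Without old WT 5 the count was 3, with Ccnb2, Cdca8, Mcm5, Tpx2 and Cdc20 lost. Without young WT 4 it was 4, with Mki67, Ccnb2, Cdca8, Mcm5 and Tpx2 lost and Aurkb gained. In fits without young WT 3, old WT 7 or any 1 of the old KO libraries Aurkb was called as well. Further losses came without young WT 1 (Mcm5 and Cdc20, with Aurkb gained), young WT 2 (Cdca8 and Tpx2), young WT 3 (Cdca8), old WT 1 (Mcm5), old WT 4 (Mki67 and Mcm5) and old WT 10 (Mki67, Mcm5 and Tpx2, with Mcm4 gained as higher and Rrm2 as lower). In each lost call the direction stayed and the adjusted p lay between 0.0501 and 0.0900. Without young WT 6 the count was 12, with Aurkb, Ccnd1, Rrm2 and Tyms added, Rrm2 as lower. Tyms was also gained without old WT 7 or old KO 1, and Top2a without old KO 1. With no filter on low counts, Cdca8 and Mcm5 lost their calls (adjusted p = 0.0524 and 0.0700).

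Genes of the same processes outside the 44 were taken from 3 further lists. Of 61 further mitotic genes, 40 were tested, and 1 (2.50%) was called higher and 2 lower with age, against the 9.92% of all genes called higher and 8.91% lower. These were Ect2, an activator of cytokinesis, at 1.02 (SE 0.251, adjusted p = 0.0113), and Anln and Ccnf at -1.07 and -0.97 (adjusted p = 0.00673 and 0.0290). The median of the 40 was 0.32 with age and -0.24 with genotype. Of 56 further replication genes, 48 were tested, and 9 were called higher and 2 lower with age, so that 18.75% were higher, against 9.92% of all genes. Among them were Brca2 at 0.56 (SE 0.111, adjusted p = 0.00337) and Rfc5, of the clamp loader, at 0.55 (adjusted p = 0.00684). In old KO against young WT, 11 of the 48 (22.9%) were called higher and 1 lower, against 12% and 11.3% of all genes, and the median of this list was 0.23 with age, 0.04 with genotype and 0.18 in old KO against young WT. Of 27 regulators of the E2F, RB and DREAM network, all tested, 2 were called higher and 3 lower with age, which is 18.5% in either direction against 18.8% of all genes. The 3 with the smallest p were E2f2 at 1.28 (adjusted p = 0.0214), Cdk7 at -0.32 and Rbl2 at -0.36 (adjusted p = 0.0219 and 0.0221).

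No gene of these 3 lists passed between the genotypes in edgeR. At an unadjusted p under 0.05 there were 10 of 40 (25%), 6 of 48 (12.5%) and 3 of 27 genes (11.1%). The share over all genes was 11.6%, so the replication genes and regulators were close to the background. The mitotic genes with the smallest p were Plk4 (-0.57), Ncapg2 (-0.91) and Cenpn (-0.76), with adjusted p between 0.163 and 0.217. Those of replication were Gins1 (0.71), Chaf1a (-1.30) and Rpa1 (0.30), with adjusted p between 0.0735 and 0.166. Among the regulators they were E2f3 (-0.56), E2f2 (-0.88) and E2f7 (1.04), with adjusted p between 0.0865 and 0.343.

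Markers of other liver cells were read in the same libraries. Of the 14 markers of monocytes and macrophages, 2 (14.3%) were higher with age, against 9.92% of all genes. In old KO 7 (50%) were lower than in old WT, among them Clec4f, Cd5l and C1qb, against 0.421% of all genes. Their sums lay in the range of 245 to 518 CPM for young WT, 330 to 740 for old WT and 189 to 296 for old KO, and none was at 0 in any library. The 8 T-cell markers, 7 of them tested, had 2 called higher with age (28.6%) and 0 between genotypes, with sums of 2.87 to 6.81, 4.34 to 12.98 and 2.57 to 7.79 CPM. Of the 7 tested, 6 had estimates above 0 with age (median 0.80) and 7 below 0 with genotype (median -0.68). Over all genes, 51.2% were above 0 with age and 49.8% below 0 with genotype. Of the 7 markers of B and plasma cells, 3 were higher with age (42.9%), and the 7 summed to 3.27 to 6.39, 8.11 to 41.97 and 14.01 to 71.6 CPM. Igj weighed most in these sums, with 5258 counts over the 15 libraries, against 127 to 700 for each of the others. Between genotypes 0 of the 7 were called. Estimates were below 0 for 5 (71.4%, against 49.8% of all genes) and above 0 for 2, with a median of -0.26. Granulocyte precursor markers were near the detection limit, with 0 of 7 tested, Ctsg at 0 in 10 libraries and Camp in 7, and sums of 0.121 to 0.862, 0.281 to 5.09 and 0.464 to 3.82 CPM. In old WT 1, 4, 5, 7 and 10, whose member means are given above, macrophage markers summed to 581, 740, 330, 502 and 533 CPM. T-cell markers summed to 4.72, 4.34, 10.2, 12.98 and 9.92 CPM in the same order, and those of B and plasma cells to 13.5, 41.97, 8.11, 28.6 and 13.7 CPM. Old WT 7 had the highest T-cell sum and old WT 4 the lowest, with member means of 0.722 and 0.762. Old WT 5 and 10, with the highest member means, stood above old WT 1 and 4 in T-cell sum and below old WT 7. Sums of macrophage markers and of B and plasma cell markers were lowest in old WT 5 and highest in old WT 4. The part of these cells in the levels of the members was not tested.

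**Figure D5:**
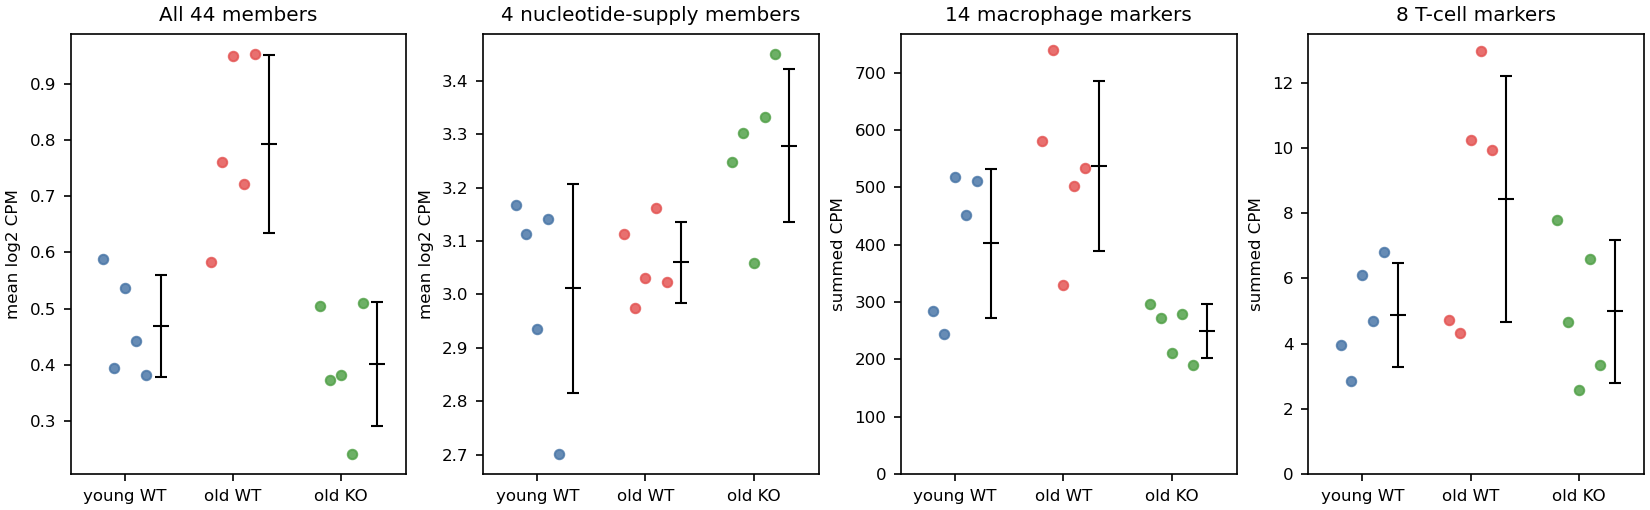
Per library, the mean log2 CPM of all 44 members, that of the 4 nucleotide-supply members, and the summed CPM of the 14 macrophage and 8 T-cell markers, with group means and SD (n = 5 each). The 44 members and the macrophage markers are highest on average in old WT, while nucleotide supply is highest on average in old KO.

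Sums of the remaining marker lists overlapped between all groups. Endothelial markers ranged from 126 to 306 CPM, with 2 of 7 lower with age, stellate cell markers from 212 to 382 CPM, with 1 of 6 lower, and bile duct markers from 3.53 to 20.7 CPM, with none of 4 called. Erythroid precursor markers ranged from 32.3 to 72.8 CPM, with 1 of 5 tested lower with age. Of the hepatocyte markers, 2 of 9 were lower with age. Over all genes 8.91% were lower with age. None of these lists had a call between the genotypes.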

How the data were processed

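Whole-liver RNA was measured in 15 mice, 5 per group, grouped by the genotype and age in the sample labels. Libraries were made with a stranded mRNA kit and sequenced as 50-base single-end reads. The authors deposited raw counts per gene, made with CASAVA, TopHat2 2.0.11 on mm9 and HTSeq. The annotation and the strand setting of the counting are not given in the sources used here, so members whose exons overlap another gene (15 of 44 in GENCODE M1) are uncertain by that overlap. The DESeq2 1.18.1 of the submitters' processing notes was not used here.

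Counts of all 37991 genes were filtered with filterByExpr, which left 14258, scaled by TMM and fitted in edgeR 4.0.16 (quasi-likelihood, all 15 libraries, no covariate, R 4.3.3), with 3 contrasts and Benjamini-Hochberg adjustment. Each SE of a log2 fold change was its absolute value divided by the square root of the F statistic of its test. Log2 CPM used a prior count of 2. Members under the filter were compared by exact 2-sided permutation of log2(CPM + 0.1) over 252 assignments. The steps were tested on simulated data. Alternatives were DESeq2 1.42.0, limma 3.58.1 voom, other scalings and filters, the contrast's own libraries, the replicate number as a block, each library left out, and a prior count of 0.5. Replicate numbers shared between groups were checked by the correlation of deviations from group means, which gave no sign that they pair the mice. Total counts of 21801754 to 38065359 make counting error small for abundant genes and limiting for members with few reads, and a limit on a count of 0 covers counting error only.

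The members and all lists were chosen with earlier results of these data known, so no set test was run. Values in every library are given for each member called with age or between genotypes and for 13 members chosen by symbol whatever their result (Mki67, Top2a, Ccna2, Ccnb1, Cdk1, Ccnd1, Ccne1, Mcm2, Pcna, Rrm2, E2f1, Foxm1 and Plk1). The others are given by group, and Aurkb was added in full after its values were seen. Of further lists, the 3 genes with the smallest p per contrast are named, apart from a gene that is not reported here. Coordinates are NCBIM37 (mm9).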

Additional observations from a re-analysis of the deposited data

Results flagged for a closer look

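In 5 of 135 checks of the 44 members and their mean within groups of 5 mice, 1 library stood apart from the other 4, where chance alone gives about 1 in 20. The gap of that library to its nearest neighbour on the log2 scale is given as a share of the group's whole range, against a critical value of 0.71. Ccnb2 was high in old KO 6 (0.881), which read 1.21 CPM where the other old KO libraries read 0.412 to 0.471. Aurka was high in the same library (0.869) and Mcm5 low in it (0.715, at 0.418 CPM). Cdc20 was high in young WT 3 (0.935), at 0.619 CPM against 0.259 to 0.275 in the others. E2f8 was low in old WT 7 (0.778), at 1.43 CPM against 9.42 to 15.99.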

How the results depend on the processing

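Apart from the leave-one-out fits, the count of members called with age was 7 to 10 under DESeq2, limma voom, both other scalings, no filter and the contrast's own libraries, against 8. No filter lost Cdca8 and Mcm5 with age and Pcna in old KO against young WT. It was 4 (E2f1, Mki67, Tk1 and Tyms) when at least 10 counts were asked of every library, which left 27 members. Their median was then 0.17 with age and -0.17 with genotype. DESeq2 called 2 members between genotypes, where all other such alternatives called 0. Leaving out 1 library gave 3 to 12 calls with age, 0 to 1 between genotypes and 2 to 6 for old KO against young WT. Medians ranged from 0.26 to 0.35, -0.43 to -0.33 and -0.05 to 0.03. The lowest and highest counts are named by library with the results, as are 4 with age without young WT 4 and 6 for old KO against young WT without young WT 6. With the replicate number as a block, 1 member (Tk1) was called with age, and the counts of 0 and 3 in the other comparisons did not change. Same-numbered mice deviated together with correlations of only -0.153 to 0.077 over 9 pairs, which gave no sign that the numbers pair the samples. So few pairs cannot exclude a pairing. Mcm2 with age ranged from -0.27 (without young WT 3) to 0.017 (without young WT 1) and never passed. Depth limits the 5 members under the filter, which had 13 to 62 reads per group.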
